A study of Mus musculus with 13 samples.

Results

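Sirtuins are the 7 genes Sirt1 to Sirt7, which encode NAD-dependent protein deacylases. They were found by exact symbol among the 32285 genes of the deposited matrices, and each symbol matched 1 gene. A sirtuin removes acetyl or longer acyl groups from lysines and consumes NAD as it does so, which ties its activity to the metabolic state of the cell. Sirt1, Sirt6 and Sirt7 act mainly in the nucleus, Sirt2 mainly in the cytoplasm, and Sirt3, Sirt4 and Sirt5 in mitochondria. They are widely studied in ageing and dietary restriction, and Sirt2 is known as an abundant protein of oligodendrocytes and myelin. A transcript level is not a measure of enzyme activity, which also depends on NAD.

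Single-nucleus RNA sequencing had been done on whole frozen hippocampus of 13 female mice, with 1 library per mouse. All mice were F1 hybrids, named C3B6F1 in the series text and C3HB6F1 in the strain label, and no transgene or mutant allele is named. Of these, 3 were young (5 months) and 10 old (24 months) when sampled. The young animals and 3 of the old ones ate ad libitum. Dietary restriction began at 20 months in 3 further old animals (the acute group) and at 5 months in the last 4 (the long-term group). Ageing compares the 2 ad libitum groups, and both restriction contrasts use the old ad libitum mice as controls, so a low or high value there moves all 3 contrasts. There was no young restricted group.

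After filters, 98041 nuclei were retained, and 15 classes were named from marker genes, with neither the sirtuins nor the listed pathway genes among the genes used for clustering. Counts of unique molecular identifiers (UMIs) were summed per mouse and class, and 10 classes held enough mice for a test. These were granule-like (35720 nuclei), CA1-like (8818), CA3-like (2997), subicular or cortical excitatory-like (1303), inhibitory-like (5080), oligodendrocyte-like (10002), oligodendrocyte-precursor-like (2961), astrocyte-like (7382), microglia-like (1624) and endothelial-like nuclei (380 over all mice, with 9 mice holding enough for a test). The single oligodendrocyte-precursor-like cluster also had raised markers of committed oligodendrocyte precursors (mean log2 fold change 3.66, against 6.06 for precursor markers). No cluster took the committed name, and the share of such nuclei in this class was not tested. Libraries held 38546292 to 80538090 UMIs. Median UMIs per nucleus were 3688 to 6952.5 in young and 6620.5 to 11200 in old ad libitum mice. Depth per nucleus thus reached higher in old ad libitum mice, but the ranges overlapped and the difference was not tested. The medians were 5190 to 7535 in the acute and 5958 to 8629 in the long-term group. The 4 libraries numbered 1 stood apart: oligodendrocyte-like nuclei made up 0.859 to 4.29% of their nuclei in named classes, against 9.37 to 28.9% in the other 9. Any pair of libraries shared 4 to 40 barcodes, at most 0.471% of the smaller one. Granule-like nuclei came mostly from clusters 2 and 5 in all old mice, in the first young mouse and in the third. Cluster 1 supplied 8.1, 76.8 and 36.5% of them in the 3 young mice and 1.5 to 12.5% in old mice.

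Over all retained nuclei, Sirt7 gave 27517 UMIs, Sirt2 25543, Sirt3 18747, Sirt5 13838, Sirt1 13220, Sirt4 11044 and Sirt6 4889. Per kilobase of gene span (GENCODE M21, GRCm38), Sirt7 was highest at 6.08 CPM (UMIs scaled to the total of the sum) and Sirt1 lowest at 0.32 CPM. RefSeq gives shorter or longer spans for some members (20.0 kb against 62.7 kb for Sirt1, 12.3 kb against 6.72 kb for Sirt4), which moves such values. On the RefSeq spans Sirt7 was still highest (6.29 CPM), but Sirt5 (0.705 CPM) and not Sirt1 (1.00 CPM) was lowest. Per kilobase of merged exon, the range was narrower, from 2.67 CPM for Sirt6 to 8.12 CPM for Sirt7, with Sirt2 at 7.70 CPM. Whether intronic reads were counted is not given in the sources used here, so neither length scale is preferred. A low-count filter was passed by Sirt2 and Sirt7 in 9 of the 10 classes, by Sirt1, Sirt3, Sirt4 and Sirt5 in 8, and by Sirt6 in 5. No sirtuin passed it in endothelial-like nuclei.

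Sirt2, the main cytoplasmic sirtuin and a tubulin deacetylase, lies at chr7:28766735-28788661 on the plus strand and overlaps 778 bases of Nfkbib on the other strand. Its upstream sequence is shown because 3 of the 8 differences between classes that passed the test were those of Sirt2. The first 233 bases of its RefSeq promoter window (GRCm38.p6, chr7:28766502-28766734, plus strand) follow, with a GC box in capitals. They end just before the GENCODE M21 start, and the RefSeq start lies further downstream, at base 28766752.
Sirt2 upstream: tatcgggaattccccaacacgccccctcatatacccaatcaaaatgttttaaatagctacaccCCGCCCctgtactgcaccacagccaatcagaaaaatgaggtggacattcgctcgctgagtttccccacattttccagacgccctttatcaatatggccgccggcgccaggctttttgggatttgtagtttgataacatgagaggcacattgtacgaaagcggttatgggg
The motifs searched on both strands were GGGCGG (the GC box), CANNTG (the E-box), ACAAT (a SOX core) and TATAAA (the TATA box). The GC box occurred once, at base 64, and 30.3% of the same 233-base windows of all 32851 RefSeq promoters hold it. ACAAT occurred once, at base 211, against 26.6% of windows. CANNTG and TATAAA were not in this window, against 63.9% and 11.9% of windows that hold them. These matches describe letters and are not binding sites.

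Sirt2 was highest in the oligodendrocyte lineage. On a log2 CPM scale shared by all classes (TMM scaling over all class sums), it averaged 7.65 ± 0.25 (SD, n = 13) in oligodendrocyte-precursor-like (hereafter precursor-like) nuclei. The oligodendrocyte-like mean was 7.02 ± 0.25. Astrocyte-like nuclei came next at 5.96 ± 0.16, followed by inhibitory-like at 5.55 ± 0.19 and microglia-like at 5.40 ± 0.65. Pooled over all mice, a sum that weights mice by their UMIs, microglia-like nuclei had 71.4 CPM (exact Poisson 95% interval 61.1 to 83.0, counting error only), above astrocyte-like (58.1) and inhibitory-like nuclei (42.7). Their place below astrocyte-like nuclei therefore depends on the scale. On the log2 scale the remaining classes lay between 5.06 and 5.30, with CA1-like lowest. The precursor-like level was above the oligodendrocyte-like level in 13 of 13 mice (difference 0.63 ± 0.32, lowest 0.24, highest 1.37). In an exact two-sided sign-flip permutation test this gave p = 0.000244, the smallest that 13 mice allow, and an adjusted p of 0.00513 over 63 neighbouring pairs. Neighbours were classes next to each other when ordered by mean log2 CPM in these same mice. The pairs were thus picked from the values under test, which the p-values do not take into account. With doublet-called barcodes kept, the difference was 0.37.

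In turn, the oligodendrocyte-like level exceeded the astrocyte-like level in 13 of 13 mice, by 1.06 ± 0.26 (exact permutation, adjusted p = 0.00513). The astrocyte-like level exceeded the inhibitory-like one in 12 of 13 mice, by 0.41 ± 0.24 (exact permutation, adjusted p = 0.00769). Below inhibitory-like nuclei, no neighbouring pair of classes in the Sirt2 order passed the test. Granule-like nuclei were lower than precursor-like nuclei in every one of the 13 mice, by 2.49 ± 0.29.

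**Figure D1:**
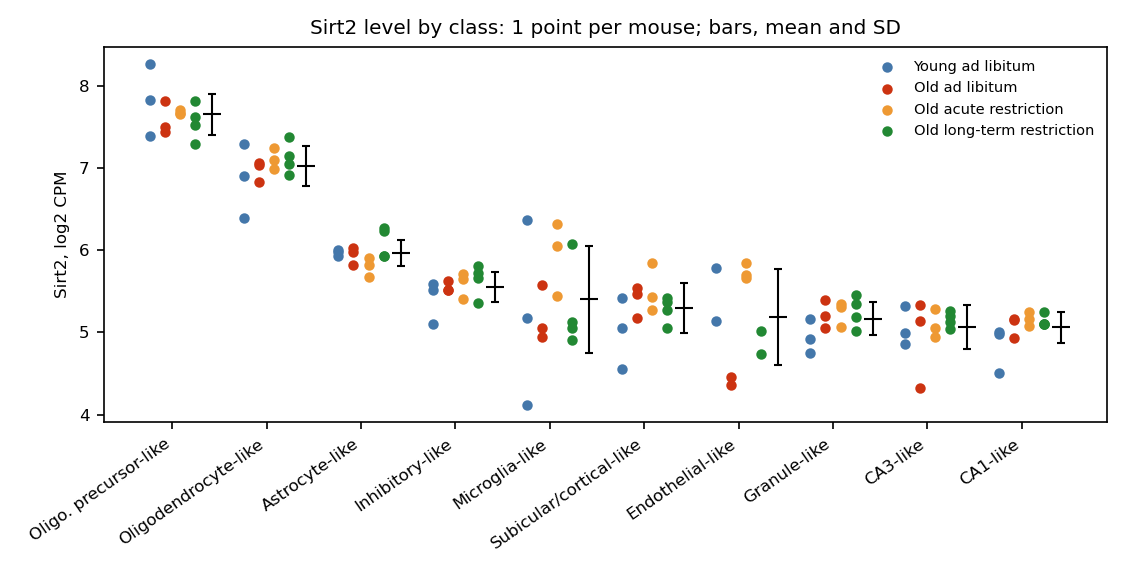
Sirt2 level (log2 CPM, y axis) in the 10 tested classes (x axis), 1 point per mouse coloured by group, with the mean and SD over mice as black bars. Precursor-like nuclei averaged 7.65 and oligodendrocyte-like nuclei 7.02, and all other classes averaged 5.96 or less.

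The share of nuclei with a Sirt2 UMI was also described at a matched depth. It is computed from the same UMIs as the CPM values, so its order is not separate support. Each nucleus was thinned to 1000 UMIs, and shallower nuclei were left out. A Sirt2 UMI was then expected in 15.6% of precursor-like nuclei (12.7 to 23.4% over mice, 40.3% before thinning, median depth 3386 UMIs). In oligodendrocyte-like nuclei the share was 11.3% (8.88 to 16.4%, 20.6% before thinning, median 1885 UMIs, 349 nuclei left out, 214 of them from young mice). In granule-like nuclei it was 3.08% (2.50 to 4.10%, 17.8% before thinning, median 6211 UMIs). No class here is known to lack Sirt2, so a level of free RNA cannot be read from Sirt2 itself. All 9 oligodendrocyte markers had UMIs in precursor-like nuclei, where their summed level was 1.82 to 5.31% of that in oligodendrocyte-like nuclei of the same mouse.

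Sirt2 supplied most of the sirtuin UMIs of precursor-like nuclei, 57.9% of 3518 (49.5 to 66.0% over mice). Its share was 47.1% of 5255 in oligodendrocyte-like nuclei, 23.2% of 5504 in astrocyte-like nuclei and 19.8% of 37099 in granule-like nuclei. Of the 10 tested classes, Sirt7 was the largest contributor in granule-like (24.1%), CA1-like (29.1%), CA3-like (29.1%), subicular or cortical excitatory-like (22.2%), astrocyte-like (25.3%) and microglia-like nuclei (36.9% of 558). These shares count UMIs without regard to gene length.

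Across 117 mouse-by-class values of the 9 classes other than endothelial-like, the genes most like Sirt2 among 3351 genes were Kif13a (Pearson r = 0.86), Kiz (r = 0.85) and Snx1 (r = 0.84). For Sirt7 they were Mgat5 (r = 0.54), Ppp1r9b (r = 0.53) and Smurf1 (r = 0.50). These correlations describe values that share libraries and classes. The other 5 sirtuins did not pass the filter in all 9 classes and were not compared.

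Among the nuclear sirtuins, Sirt1 deacetylates histones and transcription factors such as p53 and the FoxO proteins. It lies at chr10:63319005-63381704 on the minus strand, and the antisense gene Gm16145 overlaps 13035 of its bases. Strand use in the counting is not given in the sources used here, so whether reads of genes on opposite strands were told apart is not known. Of the 10 tested classes, its mean was highest in oligodendrocyte-like nuclei (5.33 ± 0.40 log2 CPM, n = 13), above astrocyte-like nuclei (4.93 ± 0.21) in 12 of 13 mice. That difference, 0.40 ± 0.42, did not pass the adjustment (exact permutation, adjusted p = 0.0569). The exception was the first young library, whose oligodendrocyte-like sum held 2 Sirt1 UMIs from 48 nuclei. Astrocyte-like nuclei exceeded precursor-like nuclei (4.60 ± 0.27) in 12 of 13 mice, by 0.32 ± 0.27 (exact permutation, adjusted p = 0.0198). Within the oligodendrocyte lineage Sirt1 was lower in precursor-like than in oligodendrocyte-like nuclei in 12 of 13 mice, by 0.73 ± 0.42, a pair that was not among those tested.

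Sirt6, a chromatin-bound deacetylase with roles in DNA repair and glucose metabolism, gave the fewest UMIs of the 7 genes in every tested class. It lies at chr10:81621785-81627797 on the minus strand. Its means were 3.49 ± 0.37 in CA3-like, 3.44 ± 0.34 in inhibitory-like and 3.13 ± 0.20 in granule-like nuclei. Inhibitory-like nuclei exceeded granule-like nuclei in 11 of 13 mice, by 0.31 ± 0.29 (exact permutation, adjusted p = 0.0327). Glial sums held few Sirt6 UMIs, 0 to 22 per mouse in astrocyte-like, 0 to 16 in oligodendrocyte-like, 2 to 12 in precursor-like and 0 to 3 in microglia-like nuclei. No neighbouring pair that included a glial class passed the test. CA3-like and inhibitory-like nuclei were above astrocyte-like and oligodendrocyte-like nuclei in 13 of 13 mice. Precursor-like nuclei were also above oligodendrocyte-like nuclei in 13 of 13 mice, by 1.15 ± 1.18. Sirt6 did not pass the low-count filter in either class, and 2 oligodendrocyte-like sums held 0 UMIs, so the size of this difference rests partly on the floor. Pooled levels were 7.45 CPM in precursor-like and 4.47 CPM in oligodendrocyte-like nuclei. These pairs were not among those tested.

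Sirt7, a nucleolar deacetylase linked to ribosomal gene transcription, lies at chr11:120618372-120625240 on the minus strand, and 124 of its bases overlap Mafg on the same strand. Its means ran from 4.83 ± 0.67 in endothelial-like (n = 9) to 6.03 ± 0.32 in astrocyte-like nuclei, with microglia-like at 5.90 ± 0.35 and CA1-like at 5.77 ± 0.19. Pooled over all mice, microglia-like nuclei were highest at 86.5 CPM (exact Poisson 95% interval 75.1 to 99.1), against 63.4 CPM (60.1 to 66.8) in astrocyte-like nuclei, so the top class depends on the scale. No neighbouring pair in its order passed the test. Astrocyte-like nuclei were nonetheless above granule-like nuclei in 13 of 13 mice, by 0.61 ± 0.24, a pair that was not among those tested. After thinning, a Sirt7 UMI was expected in 8.58% of microglia-like nuclei, against 3.81% of granule-like nuclei (11.9% and 21.5% before thinning, median depths 1403 and 6211 UMIs, 148 and 61 nuclei left out). No class here is known to lack Sirt7. All 8 granule markers had UMIs in microglia-like and astrocyte-like nuclei, where their summed level was 11.3 to 22.7% and 30.2 to 46.2% of that in granule-like nuclei of the same mouse. Their part in the Sirt7 values was not tested.

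**Figure D2:**
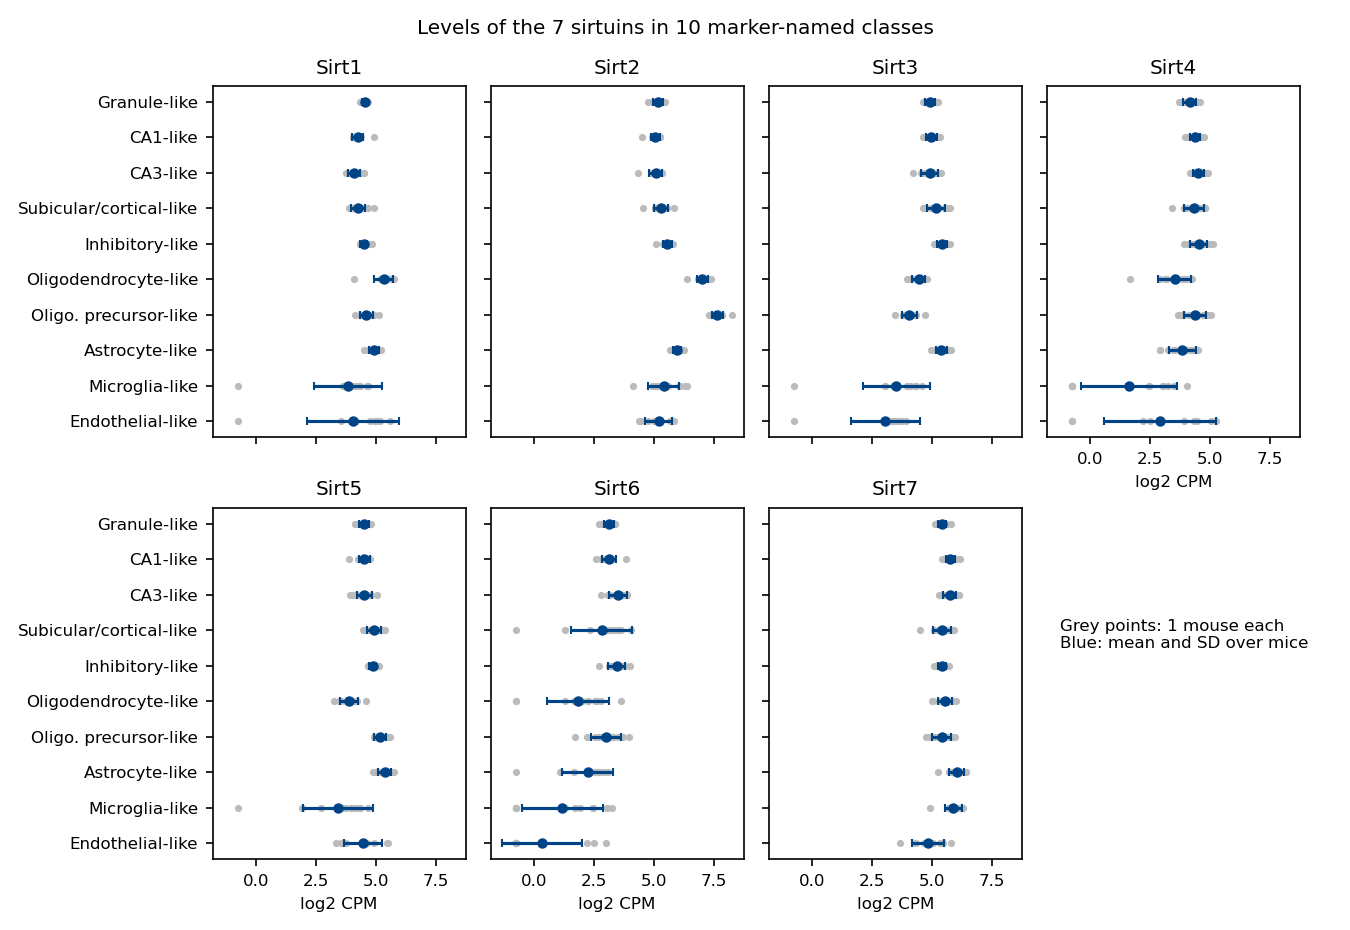
Levels of the 7 sirtuins (log2 CPM, x axis) in 10 classes (y axis), with 1 grey point per mouse and the mean and SD in blue. Sirt2 was raised in both oligodendrocyte-lineage classes (7.02 and 7.65), and the points near -0.77 are sums with 0 UMIs.

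Among the mitochondrial sirtuins, Sirt3 is the main mitochondrial deacetylase and acts on enzymes such as Sod2 and Idh2. It lies at chr7:140863666-140882309 on the minus strand and overlaps parts of Ric8a and Psmd13 on the other strand. Within the oligodendrocyte lineage its order was opposite to that of Sirt2. Inhibitory-like (5.41 ± 0.22) and astrocyte-like nuclei (5.39 ± 0.24) were highest of the 10 tested classes. Within inhibitory-like nuclei the pooled level was uneven, at 52.8 CPM in cluster 13 and 27.1 and 30.9 CPM in clusters 14 and 15. Unnamed cluster 27 was at 44.6 CPM, above the pooled 39.1 CPM of astrocyte-like nuclei. CA3-like nuclei (4.91 ± 0.35) exceeded oligodendrocyte-like nuclei (4.44 ± 0.26) in 11 of 13 mice, and these exceeded precursor-like nuclei (4.06 ± 0.30) in 12 of 13 (exact permutation, adjusted p = 0.0154 for both). Precursor-like nuclei were below each of the 5 neuronal classes in 13 of 13 mice.

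Sirt5, which removes succinyl, malonyl and glutaryl groups, lies at chr13:43365496-43395203 on the plus strand. It averaged 5.36 ± 0.28 in astrocyte-like and 5.17 ± 0.25 in precursor-like nuclei, and 3.87 ± 0.37 in oligodendrocyte-like nuclei. The latter were below precursor-like nuclei in 13 of 13 mice, by 1.30 ± 0.44 on the log2 scale, a pair that was not among those tested. Inhibitory-like nuclei exceeded CA1-like nuclei in 13 of 13 mice, by 0.34 ± 0.21 (exact permutation, adjusted p = 0.00513). Pooled by cluster, inhibitory-like clusters 13 and 15 were at 31.1 and 26.0 CPM, whereas inhibitory-like cluster 14 (19.6) was at the level of the CA1-like clusters (20.2 and 19.6).

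Sirt4, a mitochondrial lipoamidase and ADP-ribosyltransferase that restrains glutamate dehydrogenase, lies at chr5:115478010-115484725 on the minus strand. It averaged 4.53 ± 0.35 in inhibitory-like, 4.51 ± 0.24 in CA3-like and 4.16 ± 0.28 in granule-like nuclei, and 3.52 ± 0.69 in oligodendrocyte-like nuclei. No neighbouring pair passed the test. Microglia-like sums held 0 Sirt4 UMIs in 5 of 13 mice.

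Over the 63 neighbouring pairs of classes, 8 passed an adjusted p of 0.05: 3 for Sirt2, 2 for Sirt3 and 1 each for Sirt1, Sirt5 and Sirt6. With plain CPM the sign of the mean difference turned in 14 of the 63 pairs, but in none of these 8. The 3 Sirt2 pairs and the Sirt5 pair also passed without each mouse in turn and with at least 1000 genes per nucleus. The 4 other pairs did not pass with that nucleus filter (adjusted p 0.0615 to 0.304). Among the 9 libraries not numbered 1, the pairs that passed included precursor-like over oligodendrocyte-like Sirt2 (0.68, adjusted p = 0.0410), oligodendrocyte-like over astrocyte-like Sirt2, oligodendrocyte-like over precursor-like Sirt3, and the Sirt5 pair, whereas the other 4 missed it (exact permutation, adjusted p 0.105 to 0.265). The 4 libraries numbered 1 alone are too few for the test. The Sirt1 pair missed the threshold without 1 of 4 mice (the first young, the first or second acute or the second long-term mouse, adjusted p 0.0513 to 0.0547), and the Sirt6 pair without 1 of 9 mice (adjusted p 0.0547 to 0.101). With doublet-called barcodes kept, the Sirt6 pair and the Sirt3 pair of the oligodendrocyte lineage were also lost (adjusted p = 0.0923 and 0.170).

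In the 5 named classes without a test, pooled Sirt2 ranged from 31.3 CPM in hilar mossy-like to 50.3 CPM in fibroblast-like nuclei, below the pooled 123 CPM of oligodendrocyte-like and 190 CPM of precursor-like nuclei. Sirt1 was 44.3 CPM in fibroblast-like nuclei, from 96 UMIs (exact Poisson 95% interval 35.9 to 54.1, counting error only), against a pooled 40.6 CPM (37.8 to 43.5) in oligodendrocyte-like nuclei. In the 8 unnamed clusters of at least 400 nuclei, Sirt2 was 30.3 to 35.9 CPM.

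Ageing was tested on class sums with edgeR's quasi-likelihood test, fitted over all genes and all 13 mice. None of the 55 tested pairs of a sirtuin and a class was called at an adjusted p below 0.05, in either direction. At an unadjusted p below 0.05 there were 3, and DESeq2 gave 0 calls and 3 pairs at that unadjusted level. Over all genes, 1.65% of 105014 gene and class pairs were called and 18.2% had an unadjusted p below 0.05. The median log2 fold change was -0.15 over the sirtuin pairs and -0.02 over all pairs, and 40 of the 55 were lower in old mice against 52.2% of all pairs. With a trend against gene length (GENCODE M21 span) removed in each library, 28 of the 55 were lower. RefSeq spans, which differ for Sirt1 and Sirt4, were not tried in that step. Sirt6 (5 of 5 classes) and Sirt7 (9 of 9) were then higher and Sirt1 lower (8 of 8, against 6 of 8 without that step), so no direction is given for the family. By class, the share of all genes called for ageing was 7.8% in oligodendrocyte-like, 3.22% in granule-like, 2.47% in precursor-like, 1.02% in microglia-like, 0.401% in astrocyte-like and 0.00988% in subicular or cortical excitatory-like nuclei, and 0% in the other 4. Old and young mice did not overlap in 3 of the 55 pairs, against 21.6% of all pairs.

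Sirt2 in precursor-like nuclei had the smallest adjusted p in edgeR's test. Its level was 236, 183 and 311 CPM in the 3 young mice (within-class TMM scaling). In old ad libitum mice it was 168, 168 and 210 CPM. Old mice were lower on average, 182 ± 24.4 against 243 ± 64.4 CPM, but the lowest young mouse lay within the old range. The log2 fold change was -0.42 (95% interval -0.74 to -0.10), with an adjusted p of 0.144 in edgeR's test. Without the third young mouse it was -0.19. The summed oligodendrocyte markers in precursor-like nuclei also differed, at 783 to 959 CPM in young and 465 to 815 CPM in old ad libitum mice, with all 9 markers present. The class's own 7 markers summed to 11891 to 13815 CPM in young and 15863 to 15964 CPM in old ad libitum mice. Astrocyte markers (9 of 9 present) summed to 4629 to 5621 and 6405 to 6721 CPM in the same nuclei. Neither of these ranges overlapped between the groups. The part of these marker levels in the precursor-like values of Sirt2, Sirt4 and Xrcc6 was not tested.

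In granule-like nuclei the Sirt2 estimate had the opposite sign. It was 26.4, 21.7 and 30.2 CPM in young mice and 27.9, 35.2 and 31.1 CPM in old ad libitum mice. The groups overlapped, and the log2 fold change was 0.27 (95% interval -0.06 to 0.60, edgeR adjusted p = 0.253). In plain CPM the averages lay closer, at 28.5 ± 3.62 in young and 30.7 ± 3.99 in old ad libitum mice, and 27.9 ± 3.58 and 30.8 ± 3.76 without cluster 1. Oligodendrocyte-like nuclei, where Sirt2 was abundant, gave 131 ± 49.9 CPM in young and 120 ± 16.2 CPM in old ad libitum mice, and the groups overlapped. The fitted log2 fold change was 0.05 (95% interval -0.33 to 0.43), opposite in sign to the difference of these means, so no direction is given. The difference between classes in the ageing effect was not tested.

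Sirt4 was lower in old than in young mice in all 8 classes where it was tested, by 0.12 to 0.94 on the log2 scale, and none of these passed the adjustment. Sirt3 was also lower in all 8 of its classes, by 0.01 to 0.46, with none past the adjustment, and in 5 of 8 with the gene length trend removed. The 8 values of a gene share mice and are not independent. In granule-like nuclei, which held the most Sirt4 UMIs, the young mice had 18.6, 16.9 and 20.0 CPM. The old ad libitum mice had 11.8, 16.2 and 13.2 CPM. All 3 old mice lay below all 3 young mice, and the log2 fold change was -0.42 (95% interval -0.82 to -0.03, edgeR adjusted p = 0.164). In plain CPM, the averages were 20.3 ± 1.15 in young and 13.4 ± 2.36 in old ad libitum mice with all granule-like clusters, and 19.4 ± 1.83 and 13.4 ± 2.41 without cluster 1.

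In precursor-like nuclei Sirt4 was 28.1, 34.8 and 20.3 CPM in young mice, from 12 to 16 UMIs each. In old ad libitum mice it was 18.8, 13.6 and 11.3 CPM, again without overlap (log2 fold change -0.94, 95% interval -1.68 to -0.21, edgeR adjusted p = 0.156). With the gene length trend removed, the granule-like value was -0.15 and the precursor-like one -0.58, and 7 of the 8 classes were lower. With median UMIs per nucleus as a covariate, the granule-like value was -0.14 and 7 of 8 were again lower.

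**Figure D3:**
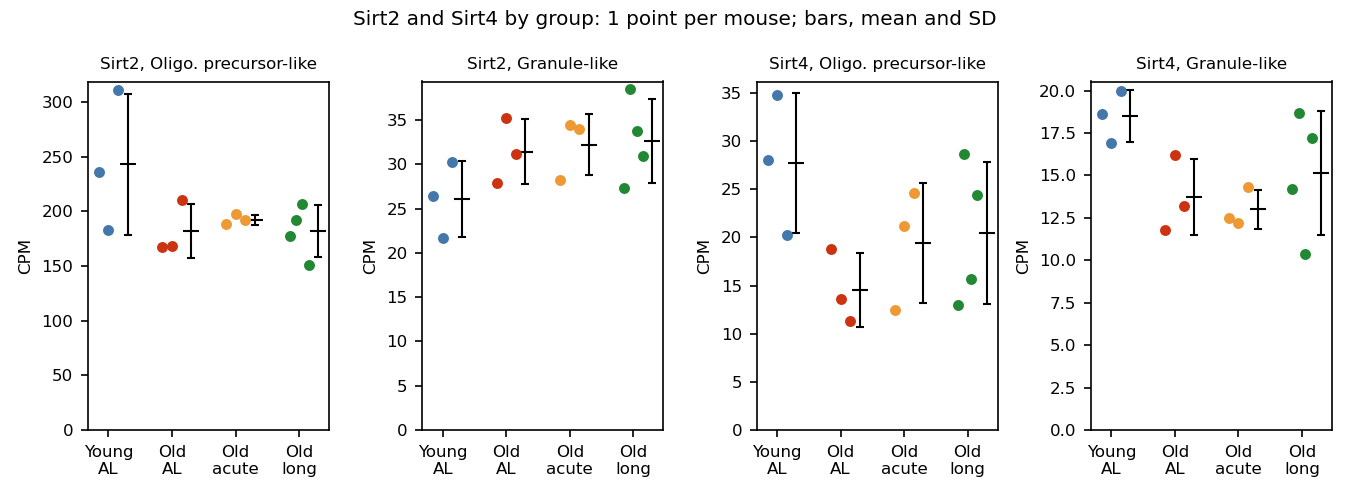
Sirt2 and Sirt4 (CPM, y axis) in precursor-like and granule-like nuclei of the 4 groups (x axis), 1 point per mouse with the mean and SD as bars. In old ad libitum mice Sirt4 lay below every young mouse in both classes (11.8 to 16.2 against 16.9 to 20.0 CPM in granule-like nuclei), and no difference passed the adjustment.

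Long-term restriction gave no called pair among 55 either, with 0 at an unadjusted p below 0.05 and 0 calls in DESeq2, against 0.0486% of all pairs called and 4.9% below the unadjusted level. By class, 0.343% of genes were called in oligodendrocyte-like, 0.108% in precursor-like and 0.0511% in microglia-like nuclei, and 0% elsewhere. The median sirtuin log2 fold change was 0.09, against 0.00 over all pairs, and 16 of the 55 were lower, against 49.7% of all pairs. Sirt4 was 17.6, 17.6, 7.0 and 20.9 CPM in astrocyte-like nuclei of the long-term group and 10.3, 8.4 and 19.4 CPM in old ad libitum mice. The groups overlapped (log2 fold change 0.69, 95% interval -0.12 to 1.51, edgeR adjusted p = 0.982). Sirt1, the sirtuin most often linked with restriction, had log2 fold changes between -0.25 and 0.17 in its 8 classes.

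Acute restriction likewise gave 0 calls of 55, 0 at an unadjusted p below 0.05 and 0 in DESeq2, against 0.217% of all pairs called and 4.98% below the unadjusted level. The median sirtuin log2 fold change was 0.08, against 0.00 over all pairs, and 16 of the 55 were lower, against 49.9% of all pairs. Both restriction contrasts share the old ad libitum mice with the ageing contrast. Sirt1 in oligodendrocyte-like nuclei was 49.4, 50.0 and 37.3 CPM under acute restriction and 43.0, 36.3 and 35.5 CPM in old ad libitum mice, and the groups overlapped. In this class 1.84% of all genes were called for acute restriction, against 0.14% in precursor-like, 0.0436% in astrocyte-like and 0.0256% in microglia-like nuclei and 0% elsewhere. Acute and control mice did not overlap for 2 of the 55 pairs, against 12.3% of all pairs. These were Sirt3 in subicular or cortical excitatory-like nuclei (log2 fold change 0.33) and Sirt2 in astrocyte-like nuclei (-0.17).

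Long-term and acute restriction were then compared with each other, and 0 of 55 pairs was called (0 in DESeq2, 1 at an unadjusted p below 0.05, 0.0114% of all pairs called, 3.02% below the unadjusted level). By class, 0.0967% of genes were called in oligodendrocyte-like and 0.0108% in precursor-like nuclei, and 0% elsewhere. The pair below that unadjusted level was Sirt5 in astrocyte-like nuclei, with 40.0, 48.7, 46.5 and 42.5 CPM under long-term and 27.2, 31.6 and 38.2 CPM under acute restriction. The groups did not overlap, as in 4.59% of all pairs, and the log2 fold change was 0.43 (95% interval 0.04 to 0.83, edgeR adjusted p = 1.00).

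Sums over all retained nuclei, in which the mix of classes differed between libraries, gave no sirtuin call in any of the 4 contrasts (edgeR and DESeq2, 0 at an unadjusted p below 0.05 in each). Of all genes there, 20.9% were below that unadjusted level for ageing, 2.62% for long-term restriction, 3.34% for acute restriction and 1.91% for long-term against acute restriction in edgeR's test. Of the 20069 genes tested there, 0% were called for ageing and 0.00498% for acute restriction. The largest ageing values were Sirt4 at -0.34 (95% interval -0.70 to 0.03) and Sirt2 at 0.32 (95% interval -0.02 to 0.66). For Sirt1 the interval was -0.33 to 0.15 for ageing and -0.17 to 0.28 for long-term restriction.

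**Figure D4:**
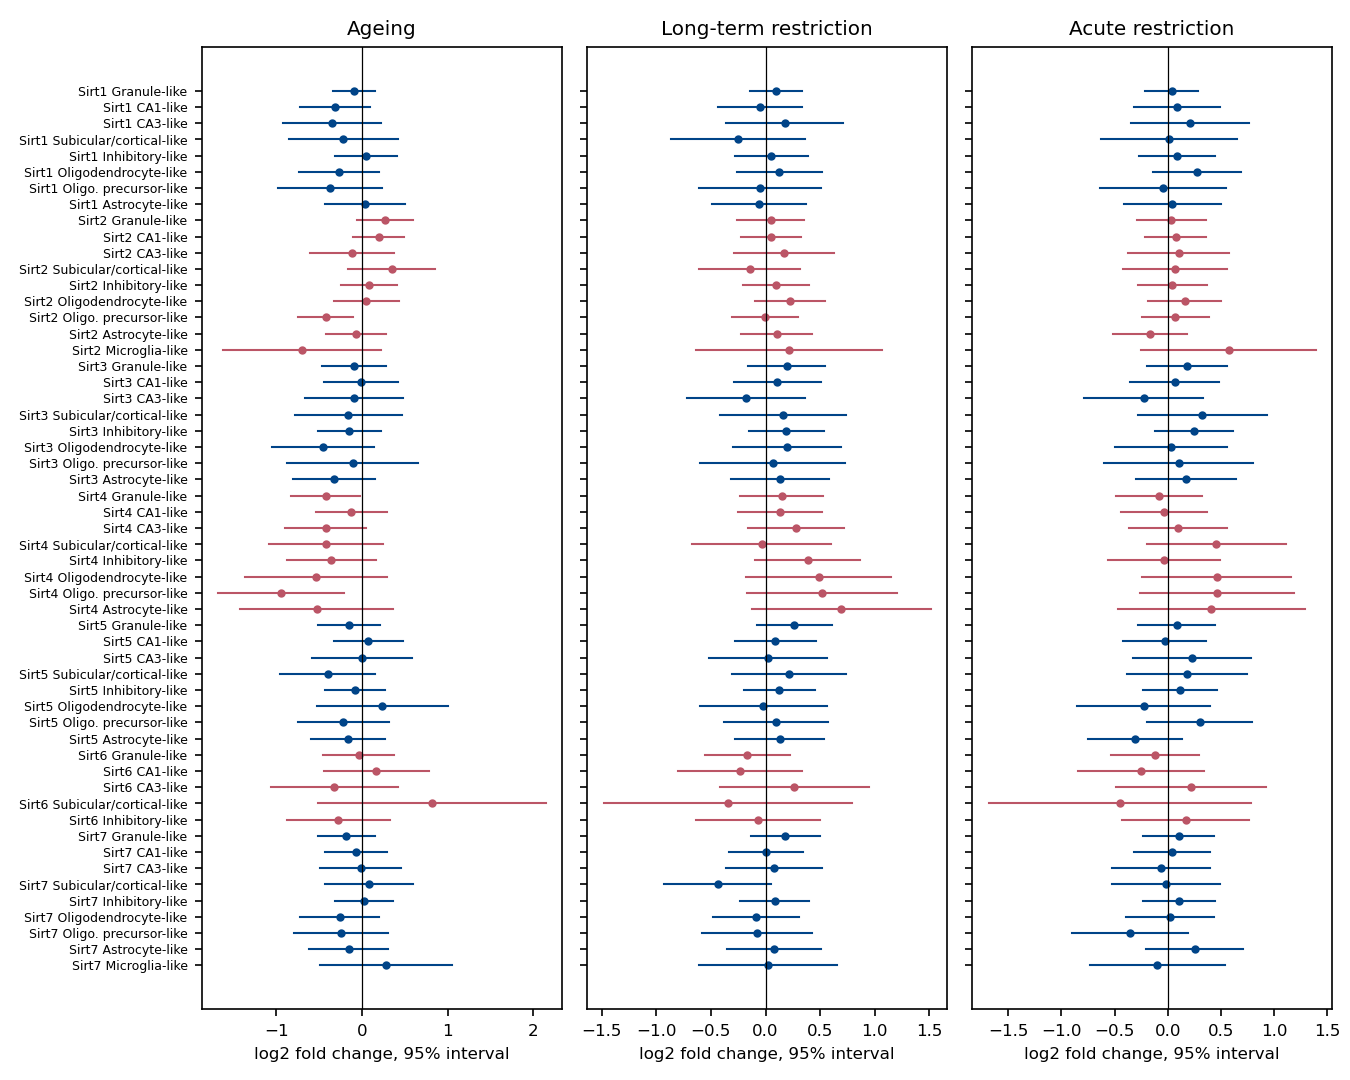
Log2 fold changes (x axis) with 95% intervals for each tested sirtuin and class (y axis, colours alternate by gene) in ageing, long-term and acute restriction. None passed an adjusted p of 0.05, and Sirt3 and Sirt4 each lay left of 0 for ageing in all 8 of their classes.

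The genes around the sirtuins were taken from 6 lists, with 70 genes in all. Over all lists 485 gene and class pairs were tested with edgeR. For ageing 3 were called, against 1.65% of all pairs, and 58 had an unadjusted p below 0.05, against 18.2%. For acute restriction 1 was called, against 0.217%, and 18 were below the unadjusted level, against 4.98%. The other contrasts had 0 calls, with 27 pairs below the unadjusted level for long-term restriction (4.9% of all pairs) and 17 for long-term against acute restriction (3.02%). DESeq2 called 11 for ageing (3.41% of all pairs), 1 for acute restriction (0.202%), and 0 for long-term restriction (0.0686%) and for long-term against acute restriction (0.00762%). Fitting the libraries numbered 1 as a term gave 13 for ageing (6.79% of all pairs), 3 for acute restriction (0.401%), and 0 for the other contrasts (0.13% and 0.0343% in the same order). Besides the 4 calls described next, that fit called Nmnat2 higher with age in CA1-like (0.47) and inhibitory-like nuclei (0.41), and Xrcc6 lower in oligodendrocyte-like (-1.60) and granule-like nuclei (-0.75). In granule-like nuclei it also called Ppargc1a (0.53), Foxo1 (0.37), Hdac8 (0.35), Hdac9 (0.34) and Tnks (0.32) higher with age, and in precursor-like nuclei Acss1 (0.55). Under acute restriction it called Rarb higher (1.34) and Clock lower (-0.48) in oligodendrocyte-like nuclei. DESeq2, without that term, also called Nmnat2 in CA1-like and inhibitory-like nuclei and Ppargc1a, Foxo1, Hdac8 and Hdac9 in granule-like nuclei. The other additional pairs of that fit were not called by DESeq2.

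NAD synthesis and transport had 1 of 76 pairs called for ageing in edgeR's test (1.65% of all pairs), with a median log2 fold change of 0.10. Nmnat2, an enzyme that makes NAD and protects axons, rose in granule-like nuclei. It was 203, 168 and 211 CPM in young and 271, 287 and 292 CPM in old ad libitum mice. The groups did not overlap (difference 0.55 on the log2 scale, SE 0.12, edgeR adjusted p = 0.0335, 3.22% of genes called in this class). The call was lost in 9 of 23 alternatives, with estimates of 0.32 to 0.58. These were median UMIs per nucleus as a covariate (0.37, adjusted p = 0.532), the gene length trend removed (0.32, adjusted p = 0.0766) and a fit of the ad libitum groups alone (0.53, adjusted p = 0.0889). It was also lost without the second young mouse (0.45, adjusted p = 0.112), any 1 old ad libitum mouse (0.53 to 0.58, adjusted p 0.0609 to 0.150), the second acute mouse (0.55, adjusted p = 0.0508) or the fourth long-term mouse (0.54, adjusted p = 0.0512). Cluster 1 supplied 76.8% of the granule-like nuclei of the second young mouse, which had the lowest value (168 CPM). The part of cluster 1 in the Nmnat2 values was not tested.

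Zinc-dependent histone deacetylases, which share the reaction but use no NAD, had 1 of 92 pairs called for ageing in edgeR's test (1.65% of all pairs, median log2 fold change 0.18). DESeq2 called 5 of the 92 (3.41% of all pairs), and the fit with the libraries numbered 1 as a term called 3 (6.79%). Outside granule-like nuclei, DESeq2 called Hdac4 in CA3-like (0.60) and Hdac8 in inhibitory-like nuclei (0.31). Hdac4, a class IIa deacetylase, rose in granule-like nuclei from 43.0, 43.1 and 45.2 CPM in young to 55.4, 60.3 and 55.7 CPM in old ad libitum mice. The estimate was 0.39 on the log2 scale (SE 0.09), with an adjusted p of 0.0455 in edgeR's test. With the gene length trend removed it was 0.10 (adjusted p = 0.508). The call was lost in 16 of 23 alternatives, among them leaving out any 1 of 11 of the 13 mice (0.35 to 0.41, adjusted p 0.0502 to 0.202) and median UMIs per nucleus as a covariate (0.33, adjusted p = 0.532). The part of granule-like cluster 1 in the Hdac4 values was not tested either.

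Nuclear and cytosolic targets had 1 of 111 pairs called for ageing (1.65% of all pairs) and 1 for acute restriction (0.217%). Xrcc6, the DNA end-binding protein Ku70, fell with age in precursor-like nuclei, from 45.0, 95.6 and 70.9 CPM in young to 25.8, 26.5 and 33.3 CPM in old ad libitum mice. The groups did not overlap (log2 fold change -1.27, SE 0.26, edgeR adjusted p = 0.00858, 2.47% of genes called). The call was lost without the second young mouse (-1.01, adjusted p = 0.106) or the second old ad libitum mouse (-1.21, adjusted p = 0.0785), and with median UMIs per nucleus as a covariate (-0.995, adjusted p = 0.607). The marker levels of precursor-like nuclei given with Sirt2 also differed between these groups.

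Kat2b, an acetyltransferase also called PCAF, rose under acute restriction in oligodendrocyte-like nuclei, from 325, 316 and 336 CPM in old ad libitum mice to 452, 510 and 427 CPM (log2 fold change 0.51, SE 0.12, edgeR adjusted p = 0.0228). Under long-term restriction it was 340 to 410 CPM, and in young mice 244 to 272 CPM. Precursor markers in these nuclei summed to 488 to 563 CPM in old ad libitum and 411 to 436 CPM in acutely restricted mice, without overlap (all 7 present), and their part in the Kat2b value was not tested. Without the second acute mouse the value was 0.43 and the call was lost (adjusted p = 0.235). It was also lost without any 1 old ad libitum mouse (0.52 to 0.58, adjusted p 0.0677 to 0.161), and with at least 1000 genes per nucleus (0.46, adjusted p = 0.107) or median UMIs per nucleus as a covariate (0.63, adjusted p = 0.0980).

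**Figure D5:**
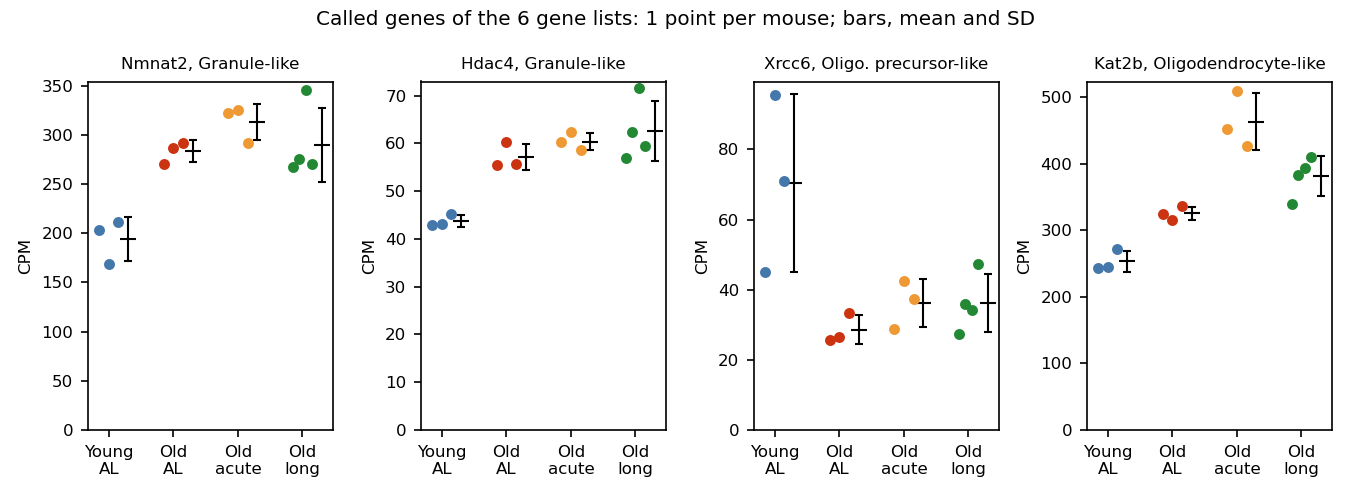
The 4 called list genes (CPM, y axis) by group (x axis), 1 point per mouse with the mean and SD as bars. Nmnat2 and Hdac4 were higher in every old than in every young mouse, Xrcc6 was lower in every old ad libitum mouse than in every young mouse, and Kat2b under acute restriction exceeded all old ad libitum mice.

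No pair was called in the other 3 lists in any of the 4 contrasts by edgeR without that term, or by DESeq2. These were the other NAD consumers and nicotinamide clearance (46 pairs), the Sirt1 regulators (56 pairs) and the mitochondrial sirtuin targets (104 pairs). With the libraries numbered 1 as a term, each had 1 call: Tnks, a tankyrase, and Acss1, a mitochondrial acetyl-CoA synthetase, for ageing, and Clock, a circadian transcription factor, for acute restriction (edgeR adjusted p = 0.0443, 0.0245 and 0.0378). At an unadjusted p below 0.05 in ageing the lists had 6, 4 and 6 pairs without that term, against 18.2% of all pairs.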

How the data were processed

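UMI counts per gene and barcode were deposited by the authors, and the file headers name Cell Ranger 4.0.0, as do the submitters' processing notes, which give mm10 as the build. The labels' protocols describe nuclei sorted after Hoechst staining and 10x Genomics libraries. Intron counting, strand use and any correction for free RNA are not given in the sources used here.

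A barcode was kept if it had 500 or more genes and no more than 5% mitochondrial UMIs (105427 of 105759). In each library, the barcodes with the highest Scrublet scores were removed as doublets, 7386 in all (7.01%). Their number was set by an assumed rate of 0.8% per 1000 barcodes kept. Clustering (scanpy 1.11.5, Leiden in igraph 0.11.9) used 2000 variable genes, 30 components, 20 neighbours and resolution 1, and gave 36 clusters. A cluster took a name from at least 3 raised markers and 50% or more of its list, the latter added after seeing the data. Its mean marker log2 fold change also had to be at least 1, and rules on doublets, leading genes and depth applied. In all, 15 clusters with 19536 nuclei stayed unnamed. Cluster 0 (4710 nuclei, 4 of 8 granule markers raised, mean 0.88) missed that mean. So did cluster 3 (3610 nuclei, 7 of 10 subicular or cortical markers raised, mean 0.97). Sums needed 20 nuclei per mouse and 2 mice in each group. Tests used edgeR 4.0.16 (TMM, filterByExpr, robust quasi-likelihood) in R 4.3.3, with Benjamini-Hochberg adjustment within a class and contrast at 0.05. DESeq2 1.42.0 was an alternative. Log2 CPM used a prior count of 2. Gene spans came from GENCODE M21, and promoters from RefSeq. Named genes were the sirtuins, the list genes called in a contrast, and the 3 genes most correlated with a sirtuin; the last rule found none over 10 classes, so endothelial-like sums were dropped after seeing the data.

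On simulated data for ageing, 48 of 98 genes changed by 1 log2 unit and 79 of 98 changed by 2 were recovered in granule-like sums (16263 genes), with 7 false calls. In oligodendrocyte-like sums (11073 genes) these were 54 of 95 and 89 of 97, with 11 false calls. The labels do not say whether mice were housed or processed together, and p-values measure the spread between these mice. The members and lists were chosen with earlier results of these data known.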

Additional observations from a re-analysis of the deposited data

Results flagged for a closer look

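In the long-term restriction group, the only group of 4 mice, 1 mouse stood far from the other 3 in 6 of 62 groups of sirtuin values checked by Dixon's test (critical ratio 0.829). Chance marks about 1 group in 20. The second long-term mouse was highest for Sirt2 in oligodendrocyte-like nuclei (7.31 log2 CPM, the others at most 7.03), for Sirt5 in CA1-like nuclei (4.54, the others 4.35 to 4.37) and for Sirt5 over all nuclei (4.55, the others 4.41 to 4.42). The third long-term mouse was lowest for Sirt4 in astrocyte-like nuclei (3.03, the others 4.23 to 4.47, with 3 UMIs from 121 nuclei) and for Sirt6 in CA1-like nuclei (2.29, the others 2.93 to 2.99), and highest for Sirt5 in subicular or cortical excitatory-like nuclei (5.31, the others 4.77 to 4.82).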

How the results depend on the processing

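The count of sirtuin calls was 0 in every contrast and over all nuclei under each of 23 alternatives: other tests, scalings, filters, covariates, doublet and nucleus rules, and leaving out each mouse. The smallest adjusted p over the alternatives was 0.0745, for Sirt2 in precursor-like nuclei in ageing with the libraries numbered 1 as a term. With the replicate number as a block the counts were also 0. Deviations of same-numbered samples over all nuclei correlated at 0.34 to 0.80 for number 1 but down to -0.09 for the others. The number of neighbouring class pairs that passed was 8, and became 16 with plain CPM (all 8 among them) and 4 with at least 1000 genes per nucleus. Leaving out 1 mouse gave 6 to 9. The called list pairs for ageing rose from 3 to 13 with number 1 as a term and to 11 in DESeq2, and for acute restriction from 1 to 3 with that term. Depth limits Sirt6 and all sirtuins in microglia-like and endothelial-like nuclei, where sums often held few UMIs.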
